A study of Mus musculus with 64 samples.

Results

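Vancomycin was compared with its vehicle, PBS, in colon of specific pathogen free (SPF) mice at zeitgeber time 11 (ZT11, in h after lights on), near the end of the light phase. The members were all 4 vancomycin and all 4 PBS libraries labelled SPF and ZT11, 8 of the 64 libraries in the series, and all genes that passed the filter on low counts were described. The tissue was whole colon of wild-type Swiss Webster mice, an outbred stock, aged 8 to 12 weeks, kept on chow with 12 h light and 12 h dark. Mice were injected intraperitoneally with 2.5 mg vancomycin in 100 µl PBS or with PBS alone, 2 times per day over 3 days and once more on day 4. Vancomycin, a glycopeptide, kills mainly Gram-positive bacteria by stopping assembly of their cell wall. For comparison the same contrast was taken from SPF colon at ZT5, ZT17 and ZT23 (24 libraries) and from germ-free (GF) colon at ZT11 (4 vancomycin and 4 PBS libraries), from mice raised without microbes that were taken out of their isolators into isolation cages for the treatment. Values are CPM (counts scaled to library size), and log2 fold changes are vancomycin minus PBS with their standard error (SE). Whether every library stands for its own mouse is not stated in the labels, so p-values measure the spread between libraries. In whole tissue, fewer cells of a type and less RNA per cell cannot be told apart.

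The 8 libraries held 10044032 to 12314157 estimated counts. They carried the genes of the labelled tissue: Epcam, an epithelial adhesion protein, lay at 1340 to 1726 CPM, the colonic chloride-bicarbonate exchanger Slc26a3 at 1181 to 2293 CPM, the mucin Muc2 at 2400 to 11830 CPM and the smooth muscle myosin Myh11 at 2542 to 5384 CPM. Lct and Sis, enzymes of the small intestinal brush border, reached at most 1.34 and 0.590 CPM. Both come from a list of 12 small intestine and stomach genes. Its 6 tested members, Apob among them, summed to 52.4 to 460 CPM per library. Libraries differed within both groups in the RNA level of lymphoid genes. The mean log2(CPM + 0.5) of 20 B cell and follicle genes was 5.63 in PBS replicate 2, 5.63 in vancomycin replicate 2 and 5.71 in vancomycin replicate 4, against 1.29 to 2.70 in the other 5 libraries. These 3 libraries are called follicle-rich below, a grouping by RNA level made after the values were seen, and list results are also given without them.

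No single gene passed the threshold at ZT11. Of 16938 genes, 0 (0%) passed an adjusted p of 0.05 in edgeR's quasi-likelihood test, 1670 (9.86%) had an unadjusted p under 0.05, and 17 (0.1%) an adjusted p under 0.1, 9 of them higher (0.0531%) and 8 lower (0.0472%) with vancomycin. DESeq2 called 102 genes and limma-trend 7. The median log2 fold change over all genes was -0.00177 and 49.7% were above 0. All 4 vancomycin libraries lay above all 4 PBS libraries for 1.42% of genes and below them for 1.61%, 3.03% together. No gene below is therefore described as changed at ZT11, and values are given for each library. With 1 library left out, the number of calls ran from 0 to 109. The 109 calls, 58 higher and 51 lower, came without vancomycin replicate 3, which stood nearest to PBS in several gene groups. That library was singled out by these same values, so the rise gives no support to the calls. The 102 DESeq2 calls and these 109 shared 58 genes, 56.9% of the first set and 53.2% of the second. Both sets rest on the same libraries, so the overlap is not independent support.

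**Figure D1:**
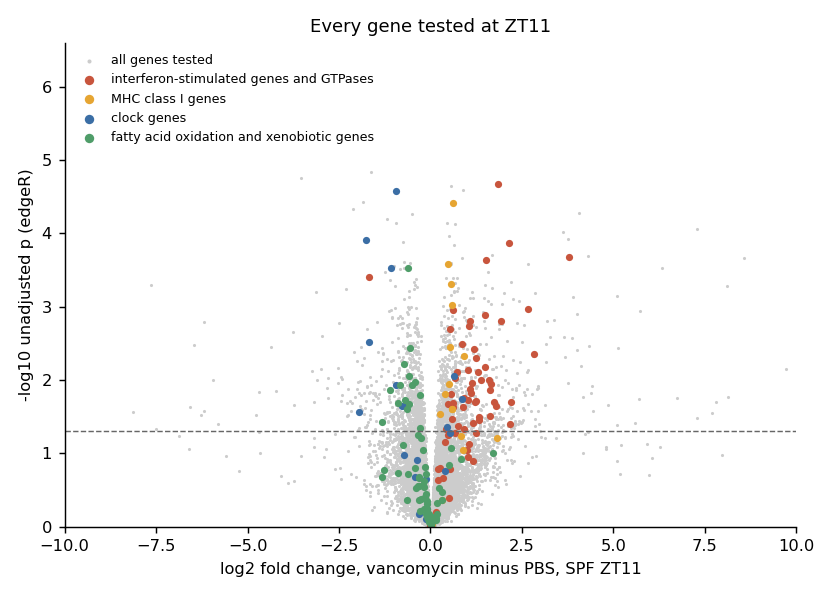
Each point is 1 of 16938 genes: the x axis gives the log2 fold change between vancomycin and PBS in SPF colon at ZT11, the y axis the -log10 of the unadjusted edgeR p, and the dashed line an unadjusted p of 0.05. Interferon-stimulated and MHC class I genes lie mostly to the right, and several clock genes and genes of fatty acid oxidation and xenobiotic metabolism to the left.

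The circadian clock is a feedback loop in which the activators ARNTL (BMAL1) and CLOCK bind E-box elements and drive genes of their own repressors, the PER, CRY and REV-ERB proteins. REV-ERB alpha and beta, encoded by Nr1d1 and Nr1d2, repress Arntl, and the PAR bZIP factors DBP, TEF and HLF act through D-boxes as outputs of the loop. In the gut the loop sets daily rhythms of barrier, transport and metabolic genes. The elements can be read in the promoters of the loop's own repressors, and 3 are shown because each holds more than 1 match to them. Sequences are from RefSeq (GRCm38.p6), were matched by gene symbol, lie within 250 bases before the annotated start and are written 5′ to 3′ on the gene's strand. Capitals mark the E-box CACGTG or the D-box TTATGTAA or TTATGCAA, searched on both strands. The stretch of Ciart, a repressor of ARNTL and CLOCK, is chr3:95882247-95882364 on the minus strand. That of Per1 is chr11:69098763-69098948 on the plus strand, and that of Per3 is chr4:151044796-151044890 on the minus strand.
Ciart: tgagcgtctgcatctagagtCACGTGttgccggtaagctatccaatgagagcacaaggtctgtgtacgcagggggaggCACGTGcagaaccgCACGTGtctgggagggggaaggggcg
Per1: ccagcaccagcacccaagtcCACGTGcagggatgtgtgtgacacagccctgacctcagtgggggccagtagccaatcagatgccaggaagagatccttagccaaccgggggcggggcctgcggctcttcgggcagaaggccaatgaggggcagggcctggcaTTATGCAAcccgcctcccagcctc
Per3: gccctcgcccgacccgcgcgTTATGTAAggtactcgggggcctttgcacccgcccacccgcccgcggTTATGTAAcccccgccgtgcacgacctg
An E-box stood in 4 of the 8 clock repressors with a promoter entry and in 6.02% of all 32851 promoters, and a D-box in 2 of the 8 and in 1.5% of all. These matches describe the sequence and show no binding.

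Clock repressors and outputs lay lower with vancomycin at ZT11, and activators lay level or higher. Of 10 repressor genes 9 had a negative log2 fold change (median -0.55), and 5 of them had an unadjusted p under 0.05 on the lower side, against 4.54% of all genes. Of 6 output genes 5 were negative (median -0.84), 3 of them at that p. Of 5 activator genes 3 were positive (median 0.39). In GF colon the medians were 0.22 for repressors and 0.19 for outputs. Over the 3 lists 8 of 21 genes were lower at that p, 4 without PBS replicate 3 and 5 without the follicle-rich libraries.

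Nr1d1, encoding REV-ERB alpha, measured 141, 137, 136 and 72.7 CPM in the PBS libraries and 54.5, 56.6, 65.8 and 53.7 CPM in the vancomycin libraries. PBS replicate 4 was low for its group but still above all 4 vancomycin libraries. The log2 fold change was -1.08 ± 0.26 (edgeR adjusted p = 0.125). Its paralogue Nr1d2, REV-ERB beta, was at 79.7, 90.8, 104 and 49.5 CPM with PBS and at 38.8, 54.0, 43.8 and 31 CPM with vancomycin. The groups overlapped through PBS replicate 4 alone, and the log2 fold change was -0.95 ± 0.19 (edgeR adjusted p = 0.0739). Ciart was at 1.80, 8.73, 7.59 and 1.44 CPM with PBS and at 1.17, 1.75, 1.76 and 1.44 CPM with vancomycin. PBS replicates 2 and 3 thus stood high and replicates 1 and 4 near the vancomycin libraries, with a log2 fold change of -1.67 ± 0.51 (edgeR adjusted p = 0.251).

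Dbp, the D-box activator, had the lowest p among the outputs. It measured 43.9, 87.0, 93.6 and 23.6 CPM with PBS and 8.67, 22.8, 31.2 and 10.1 CPM with vancomycin. Vancomycin replicate 3 lay above PBS replicate 4, and the log2 fold change was -1.77 ± 0.39 (edgeR adjusted p = 0.103). Its relative Hlf spread widely, from 3.73 to 76.8 CPM with PBS and from 2.92 to 23.4 CPM with vancomycin (-1.96 ± 0.84), and Tef from 40.7 to 118 and from 10.8 to 91.6 CPM (-0.73 ± 0.44). Usp2, a deubiquitinase under clock control, was at 8.79 to 26.9 CPM with PBS and 8.13 to 11.9 CPM with vancomycin (-0.95 ± 0.35). Nfil3, the D-box repressor that opposes DBP, had the other sign: 4.38, 3.73, 6.66 and 8.87 CPM with PBS and 12.7, 7.61, 7.13 and 15.5 CPM with vancomycin (0.86 ± 0.34).

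The period genes were not alike. Per1 lay at 38.7, 51.0, 82.0 and 41.7 CPM with PBS and 32.8, 34.5, 18.5 and 38.5 CPM with vancomycin, so all 4 vancomycin libraries were below all 4 PBS libraries (-0.78 ± 0.32, edgeR adjusted p = 0.428). Per3 lay at 10.6 to 35.7 CPM with PBS and 11.7 to 18.9 CPM with vancomycin (-0.68 ± 0.28). Per2 had a log2 fold change of -0.12 ± 0.42, which turned to 0.17 without PBS replicate 3. That of Cry1 was -0.32 ± 0.74, with PBS libraries from 4.29 to 140 CPM, and turned to 0.26 without PBS replicate 4, 0.02 without vancomycin replicate 4 and 0.18 in limma-trend. The remaining repressors were Cry2 (-0.37 ± 0.23) and Bhlhe41 (-0.42 ± 0.33) on the lower side and Bhlhe40 (0.44 ± 0.21) on the higher side. Arntl, the activator that REV-ERB proteins repress, was at 38.6, 22.8, 33.8 and 45.1 CPM with PBS and at 60.7, 57.5, 59.3 and 43.3 CPM with vancomycin. Vancomycin replicates 1 to 3 were above every PBS library and replicate 4 within their range, and the log2 fold change was 0.66 ± 0.23 (edgeR adjusted p = 0.337). Npas2, a substitute for CLOCK, had 0.39 ± 0.28, and Clock itself -0.12 ± 0.10. Rora had -0.11 ± 0.20 and the cell cycle kinase Wee1, an output, -0.11 ± 0.19, or 0.12 without the follicle-rich libraries.

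Several repressors and outputs were rising around this time in PBS colon, where 10 genes (0.059%) were called between ZT5 and ZT11 and 606 (3.58%) between ZT11 and ZT17. In PBS colon Nr1d1 averaged 6.04 CPM at ZT5 and 179 CPM at ZT17 and rose from ZT5 to ZT11 by a log2 fold change of 4.33 (edgeR adjusted p = 5.88e-10). Nr1d2 rose over the same interval by 2.59 (adjusted p = 3.44e-09) and again from ZT11 to ZT17 by 0.67 (adjusted p = 0.0434). Dbp averaged 7.36 CPM at ZT5 and 153 CPM at ZT17 and rose from ZT5 to ZT11 by 3.07 (adjusted p = 0.000293). Arntl averaged 72.1 CPM at ZT5 and 19.5 CPM at ZT17 and fell by 0.85 on the log2 scale from ZT11 to ZT17 (adjusted p = 0.0431). At ZT5 the vancomycin difference had the opposite sign for Nr1d1 (0.73), Nr1d2 (0.77), Ciart (1.06) and Per1 (1.13), none past an adjusted p of 0.05. At ZT17 it was -0.71, -0.26, -0.33 and 0.17 for these genes, again none past that threshold.

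**Figure D2:**
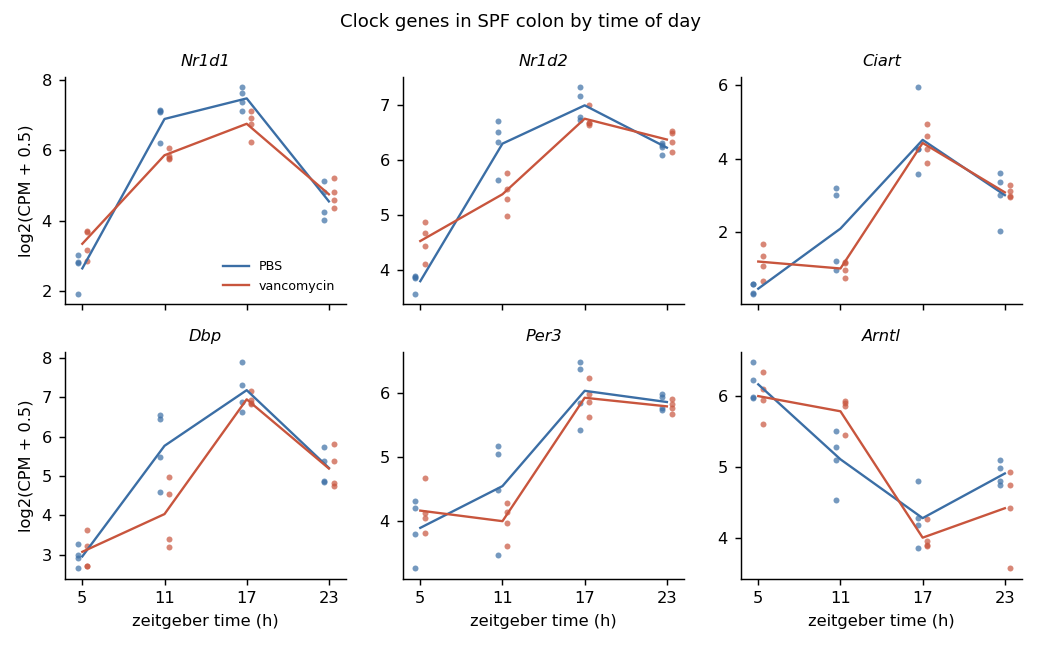
Level of 6 clock genes, as log2(CPM + 0.5), against zeitgeber time in h in SPF colon; points are libraries, lines join the means of the 4 PBS (blue) and 4 vancomycin (red) libraries. At ZT11 the vancomycin points of Nr1d1, Nr1d2, Dbp, Ciart and Per3 lie at or below the middle of the PBS points and those of Arntl above it.

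Each library was also placed on the daily cycle as a whole. For each of 21 clock genes a cosine with a period of 24 h was fitted to the other 31 SPF libraries, and the clock time of the library was the hour at which the fitted curves matched its values best. PBS libraries at ZT11 were placed at 11.69, 14.26, 14.57 and 10.13 h (mean 12.66 ± 2.13 h SD, n = 4), and vancomycin libraries at 8.27, 9.91, 10.47 and 9.74 h (mean 9.60 ± 0.94 h SD, n = 4). The vancomycin libraries were earlier by a mean of 3.06 h, and only PBS replicate 4, at 10.13 h, fell within their range. Placed the same way, the other 6 SPF groups had means between -0.53 and 0.32 h from their sampling time, against 1.66 h for PBS and -1.40 h for vancomycin at ZT11. Single libraries spread more widely, from -0.87 to 3.57 h in PBS at ZT11, from -2.73 to -0.53 h in vancomycin at ZT11 and from -2.82 to 2.99 h in vancomycin at ZT17. The PBS mean depended on the template, at 11.57 h with curves from SPF PBS libraries alone and 11.92 h with curves from GF libraries, where the vancomycin means were 9.03 and 9.37 h. No test was made of this value. It lay between -3.95 and -2.37 h under the other templates, gene choices and left-out libraries that were run. Because the fitted curves have a fixed amplitude, a difference in amplitude was not separated from a difference in phase.

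**Figure D3:**
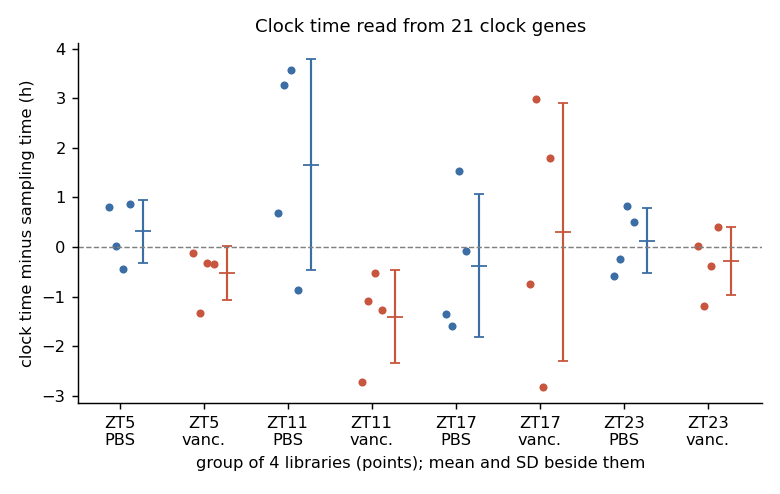
Clock time read from 21 genes minus the sampling time, in h, for the 32 SPF libraries; points are libraries, and the bar beside each group of 4 gives its mean and SD. The ZT11 groups average 1.66 h (PBS) and -1.40 h (vancomycin), and the means of the other groups lie within 0.53 h of 0, with single libraries as far as 2.99 h.

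The same contrast in GF colon differed for 1 clock gene. Dbp was the 1 gene of 16604 (0.00602%) called for a difference between the SPF and GF vancomycin effects at ZT11 by edgeR, where 1337 genes (8.05%) had an unadjusted p under 0.05. In GF colon Dbp was at 10.7, 7.41, 21.2 and 17.2 CPM with PBS and 45.3, 41.3, 33.0 and 32.9 CPM with vancomycin, all 4 above the PBS libraries, the reverse of SPF colon. The SPF effect minus the GF effect was -3.19 ± 0.59 on the log2 scale (adjusted p = 0.0287). The call was lost in 7 of 16 fits that left out 1 library (adjusted p 0.0669 to 0.174), namely SPF PBS replicate 2 or 3, SPF vancomycin replicate 1 or 4, GF PBS replicate 1 or 2 and GF vancomycin replicate 2, while the value stayed between -3.59 and -2.94. Nr1d2 was at 31.1, 36.2, 50.4 and 27.6 CPM with PBS and 45.6, 82.5, 71.0 and 66.8 CPM with vancomycin in GF colon, and its difference between SPF and GF was -1.82 ± 0.36 (edgeR adjusted p = 0.0563). GF PBS libraries had Dbp and Nr1d2 levels closer to those of SPF vancomycin than of SPF PBS libraries, as values set side by side from tables scaled separately.

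Interferons act through receptors and signal transducers on interferon-stimulated response elements of their target genes. Their targets include antiviral proteins, the guanylate-binding proteins and immunity-related GTPases that attack vacuoles holding microbes, and the immunoproteasome and MHC class I molecules that present peptides to CD8 T cells. The colon epithelium and resident immune cells hold these genes at a tonic level. The promoters of 3 targets with clustered copies of the element core are shown. Capitals mark GAAA followed by any 2 bases and GAAA again, searched on both strands with overlaps merged, so that in Ifit1 the same core reads as TTTC copies. Isg15, encoding a ubiquitin-like modifier, is at chr4:156200855-156200916 on the minus strand, Ifit1, encoding a sensor of foreign RNA, at chr19:34640765-34640833 on the plus strand, and Irgm1, encoding an immunity-related GTPase, at chr11:48871421-48871470 on the minus strand (GRCm38.p6, RefSeq).
Isg15: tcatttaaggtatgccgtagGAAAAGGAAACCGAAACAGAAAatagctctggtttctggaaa
Ifit1: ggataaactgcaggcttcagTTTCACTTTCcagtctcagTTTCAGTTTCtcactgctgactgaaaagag
Irgm1: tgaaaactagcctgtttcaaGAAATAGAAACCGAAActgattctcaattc
The core stood in 15 of the 36 interferon-stimulated genes with a promoter entry, in 9 of the 9 GTPase genes with one and in 2.98% of all promoters.

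Interferon-stimulated genes lay higher with vancomycin in 3 of the 4 libraries. Of 49 such genes 47 had a positive log2 fold change (median 1.04), 36 had an unadjusted p under 0.05 on the higher side and 1 on the lower side, against 5.32% and 4.54% of all genes. All 16 interferon-induced GTPase genes were positive (median 1.14), 12 at that p. All 16 genes of the MHC class I pathway were positive (median 0.57), 11 at that p, and 5 of them had every vancomycin library above every PBS library, against 1.42% of all genes. The medians of the same lists in GF colon at ZT11 were -0.01, 0.00 and 0.07. In SPF colon at ZT5, ZT17 and ZT23 they were 0.01, 0.30 and 0.44 for interferon-stimulated genes, 0.81, 0.68 and 0.89 for GTPases and 0.19, 0.43 and 0.11 for MHC class I, so positive medians were not limited to ZT11. Members of the GTPase and MHC class I families share sequence, and how reads were divided among copies is uncertain.

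Usp18, a protease that removes ISG15 and damps interferon signalling, was at 3.52, 3.10, 3.37 and 3.29 CPM with PBS and 10.8, 31.8, 2.26 and 14.6 CPM with vancomycin. Replicates 1, 2 and 4 were far above the PBS libraries and replicate 3 below them (2.16 ± 0.49, edgeR adjusted p = 0.105). Oas2, a sensor of double-stranded RNA, followed the same order with 3.78, 1.99, 7.25 and 4.65 CPM against 22.8, 59.8, 2.01 and 27.3 CPM (2.66 ± 0.73). Isg15 was at 11.9, 6.27, 16.3 and 9.29 CPM with PBS and 29.2, 41.2, 5.12 and 59.6 CPM with vancomycin (1.62 ± 0.61). Bst2, which tethers budding virus to the cell surface, was at 15.1 to 26.6 CPM with PBS and 34.1, 92.5, 18 and 83.2 CPM with vancomycin (1.52 ± 0.36). Stat2, a transducer of type I interferon signals, was at 39.5, 43.4, 52.4 and 43.8 CPM with PBS and 61.9, 85.2, 46.3 and 81.5 CPM with vancomycin (0.62 ± 0.17). Ifit1 had 1.33 ± 0.58. In all 6 genes vancomycin replicate 3 lay within or below the PBS range. Of the 2 genes with the other sign, Trim30d had -0.02 ± 0.53 and Ifi27l2b was at 69.7, 56.5, 107 and 11.7 CPM with PBS and 17, 19, 12.2 and 28.2 CPM with vancomycin (-1.68 ± 0.42).

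Among the GTPases, Gbp10 had the lowest p, with 0.43, 0.635, 0.253 and 0.507 CPM with PBS and 2.67, 18, 2.94 and 2.02 CPM with vancomycin (3.78 ± 0.88, edgeR adjusted p = 0.125). The groups did not overlap, but replicate 2 held most of the signal. Irgm1 was at 27.2, 25.1, 35.3 and 28.6 CPM against 57.0, 81.3, 30.7 and 40.8 CPM (0.85 ± 0.26), and Tgtp1 at 0 to 5.08 CPM against 1.59 to 43.6 CPM (2.84 ± 0.92).

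In the MHC class I pathway differences were smaller, and in 5 of 16 genes vancomycin replicate 3 also lay above every PBS library. The list level of that replicate, 6.32, was within the PBS range of 6.26 to 6.74. The immunoproteasome subunit Psmb10 was at 100, 67.3, 87.2 and 75.4 CPM with PBS and 152, 101, 119 and 136 CPM with vancomycin (0.62 ± 0.13, edgeR adjusted p = 0.0814). The proteasome activator Psme1 was at 105, 105, 103 and 92.0 CPM against 146, 162, 107 and 149 CPM (0.48 ± 0.11). Both genes had all 4 vancomycin libraries above all PBS libraries, replicate 3 included. The heavy chain gene H2-D1 was at 1392, 1289, 1373 and 1349 CPM with PBS and 1795, 2453, 1580 and 2192 CPM with vancomycin (0.57 ± 0.14), again without overlap. The light chain B2m was at 401 to 443 CPM with PBS and 673, 832, 393 and 580 CPM with vancomycin (0.58 ± 0.16). MHC class II genes, a mark of antigen-presenting cells, had 9 of 9 members positive but 0 with an unadjusted p under 0.05. Their median was 0.56, or -0.44 without the follicle-rich libraries.

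Lymphocyte markers moved with the interferon genes in some libraries and not in others. The mean log2 level of the 49 interferon-stimulated genes was 3.98 to 4.50 in the PBS libraries and 4.94, 5.84, 3.95 and 5.24 in vancomycin replicates 1 to 4. That of 29 T and NK cell genes was 0.25, 2.33, 0.47 and 0.63 with PBS and 0.90, 3.98, 0.46 and 2.42 with vancomycin. Of these 29 markers 28 were positive (median 1.71) and 12 had an unadjusted p under 0.05, all higher, against 5.32% of all genes. Without the follicle-rich libraries 1 was higher at that p and the median was 0.34. Cd3d, a T cell receptor subunit, was at 0.506 to 2.54 CPM with PBS and 0.667, 45.6, 1.84 and 15.6 CPM with vancomycin. Nkg7, of cytotoxic granules, was at 0.253 to 0.873 CPM against 0.671 to 4.02 CPM. PBS replicate 2, with as much B cell signal as vancomycin replicates 2 and 4, had the lowest PBS level of interferon-stimulated genes, 3.98, but the highest PBS level of GTPases, 3.20 against 2.46 to 2.84, and of MHC class I genes, 6.74 against 6.26 to 6.46. Vancomycin replicate 1, with a B cell level of 2.70 and a T cell level of 0.90, had 4.94. Without the 3 follicle-rich libraries, which left 3 PBS and 2 vancomycin libraries, the median of the interferon-stimulated list was 0.25 with 1 member at an unadjusted p under 0.05 on the higher side, that of the GTPases 0.31 with 2, and that of MHC class I 0.30 with 3. Without vancomycin replicate 2 alone the counts were 17, 2 and 6. Without vancomycin replicate 3 they were 40, 15 and 14, with 11, 2 and 5 members called by edgeR. The number of calls over all genes in that fit is given above. That library was singled out by these same values, so the member calls give no support. The part of lymphoid tissue in these values was not tested further.

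**Figure D4:**
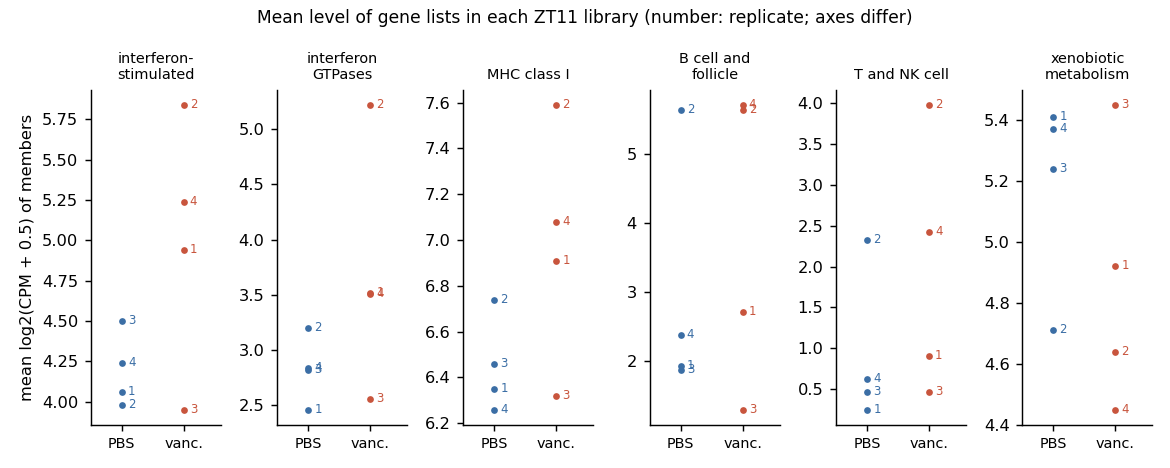
Mean log2(CPM + 0.5) of the tested members of 6 gene lists in each of the 8 ZT11 libraries, PBS in blue and vancomycin in red, with the replicate number beside each point and a separate axis for each list. Interferon and MHC class I levels are highest in vancomycin replicate 2 and at PBS level in replicate 3, while B cell levels are high in PBS replicate 2 and vancomycin replicates 2 and 4.

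Chemokine genes that interferon gamma induces were high in vancomycin replicates 1 and 2. Cxcl9 was at 0.946, 1.11, 2.28 and 0.253 CPM with PBS and 15.4, 24, 0.335 and 2.02 CPM with vancomycin (3.17 ± 0.90), and Cxcl10 at 0.338 to 2.14 CPM against 8.59, 11.1, 0.252 and 2.88 CPM (2.43 ± 0.90). Both attract T cells through CXCR3. Replicate 3 was within or below the PBS range for both, and replicate 4 lay within it for Cxcl9. Of 24 chemokine and cytokine genes tested 7 had an unadjusted p under 0.05 on the higher side and 1 on the lower side. Shares over all genes were 5.32% and 4.54%, and without the follicle-rich libraries the counts were 3 and 1. The gene on the lower side was Ccl28, an epithelial chemokine for IgA plasma cells, at 92.8 to 123 CPM with PBS and 63.2 to 93.8 CPM with vancomycin (-0.41 ± 0.15). Ifng, Il17a and Il22 did not pass the filter and reached at most 0.192, 0.0875 and 0.192 CPM.

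A pair of IgA genes lay lower with vancomycin in every library, whereas their list was split, with 6 plasma cell genes positive and 6 negative. Jchain, the joining chain of secreted IgA, was at 317, 311, 349 and 322 CPM with PBS and 126, 164, 206 and 125 CPM with vancomycin (-1.06 ± 0.47, edgeR adjusted p = 0.458). Igha, the IgA heavy chain, was at 886 to 982 CPM with PBS and 355 to 776 CPM with vancomycin (-0.83 ± 0.48). The groups did not overlap for either gene. On the lower side this held for 2 of the 12 list members and for 1.61% of all genes. Among 12 plasma cell genes 3 had an unadjusted p under 0.05, all lower, against 4.54% of all genes, and the median was 0.02. Without the follicle-rich libraries 1 was lower at that p and the median was -0.43.

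Epithelial defence genes with the lowest p lay higher with vancomycin. Of 27 such genes 6 had an unadjusted p under 0.05 on the higher side and 1 on the lower side (median 0.20). The shares of all genes were 5.32% and 4.54%. Without the follicle-rich libraries the counts were 5 and 1 (median -0.05). The acute phase gene Saa1, which colonocytes express on contact with adherent microbes, was at 1480, 598, 1003 and 732 CPM with PBS and 5501, 3330, 798 and 2628 CPM with vancomycin (1.69 ± 0.39, edgeR adjusted p = 0.125). Its neighbour Saa2, with which it shares sequence, was at 38.2 to 82.0 CPM against 297, 262, 33.5 and 95.6 CPM (1.64 ± 0.44). As with the interferon genes, replicate 3 stood at the PBS level. Lypd8, a secreted protein that holds flagellated bacteria off the epithelium, was at 7300, 4041, 4783 and 5659 CPM with PBS and 8571, 8121, 7864 and 8991 CPM with vancomycin, without overlap (0.62 ± 0.18). Pla2g2a, an antibacterial phospholipase, had the opposite sign (-1.18 ± 0.39).

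Innate signalling genes also lay higher in part. Of 27 genes of pattern recognition and NF-κB signalling 7 had an unadjusted p under 0.05 on the higher side and 1 on the lower side. Shares over all genes were 5.32% and 4.54%, and without the follicle-rich libraries the counts were 2 and 0. Relb, a subunit of noncanonical NF-κB, was at 53.1 to 68.8 CPM with PBS and 102, 115, 71.5 and 91.2 CPM with vancomycin (0.62 ± 0.15). Sigirr, which restrains interleukin 1 and Toll-like receptor signalling, was at 24 to 32.4 CPM against 45.5, 38.6, 30.9 and 41.3 CPM (0.57 ± 0.14). Of 24 immediate early genes 6 were higher at that p (2 without the follicle-rich libraries), among them Ier5 at 59.1 to 75.2 CPM against 86.8 to 127 CPM (0.72 ± 0.18) and Jund (0.55 ± 0.18). In the gasdermin family, pore-forming proteins of epithelial and immune cell death, Gsdmd was at 93.9 to 125 CPM with PBS and 141 to 167 CPM with vancomycin (0.45 ± 0.15). Gsdmc3 was at 105 to 147 CPM against 37.7 to 106 CPM (-0.80 ± 0.27) and its copy Gsdmc2 had -0.90 ± 0.40.

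Of all genes 5.32% were higher and 4.54% lower at an unadjusted p under 0.05. At that p 3 of 11 sodium channel and aldosterone genes were higher and 0 lower (median 0.12). Of 25 electrolyte, acid and water transport genes 2 were higher and 2 lower (median -0.24). Of 13 short-chain fatty acid genes 0 were higher and 2 lower (median -0.26). Of 17 amino acid and peptide transport genes 2 were higher and 0 lower (median 0.14). Without the follicle-rich libraries the counts, in this order, were 4 and 0, 1 and 0, 0 and 0, and 1 and 1. The epithelial sodium channel subunits, which reclaim sodium in the distal colon under aldosterone, were high in the same 3 libraries: Scnn1b was at 3.61, 6.51, 3.46 and 2.45 CPM with PBS and 38.2, 25.8, 3.52 and 18.9 CPM with vancomycin (2.43 ± 0.65), and Scnn1g had 2.77 ± 1.07. Their vancomycin differences were 2.46 and 4.28 at ZT5 and 1.78 and 2.86 at ZT23. At ZT17 they had the opposite sign, -0.50 and -0.73, and none at these times passed an adjusted p of 0.05. Hsd11b2, the enzyme that shields the aldosterone receptor from cortisol and corticosterone, was at 117, 111, 75.3 and 101 CPM with PBS and 436, 328, 172 and 176 CPM with vancomycin, without overlap (1.46 ± 0.38, edgeR adjusted p = 0.162). The amino acid exchanger subunit Slc7a9 was at 1.46, 0.159, 1.10 and 0.338 CPM against 17.9, 28.2, 1.09 and 3.56 CPM (4.05 ± 0.84, edgeR adjusted p = 0.0833). Apob, of lipoprotein assembly and typical of the small and proximal large intestine, was at 17.1 to 82.3 CPM with PBS and 92.4 to 338 CPM with vancomycin (1.97 ± 0.53), and the bile acid exporter subunit Slc51b at 3.65 to 9.54 CPM against 9.56 to 23.9 CPM (1.05 ± 0.35). The HOX genes that mark position along the gut did not separate the groups at that unadjusted p on the proximal side (0 of 6). Of 9 distal members 1 lay lower, or 0 without the follicle-rich libraries. Slc5a8, a carrier of short-chain fatty acids, was at 186 to 291 CPM with PBS and 117, 137, 219 and 138 CPM with vancomycin (-0.63 ± 0.22).

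Most genes of fatty acid oxidation and of xenobiotic metabolism had a negative log2 fold change, but both list levels overlapped between groups. Mean log2 levels of the fatty acid oxidation list were 6.22 to 6.51 with PBS and 6.25, 6.13, 6.46 and 5.91 with vancomycin. Of 26 fatty acid oxidation genes 22 were negative (median -0.15), 4 of them with an unadjusted p under 0.05 and 0 on the higher side. Of all genes 4.54% were lower and 5.32% higher at that p. Without the follicle-rich libraries the counts were 1 and 0 (median -0.08). Cpt1a, the gatekeeper of fatty acid entry into mitochondria, was at 170, 182, 197 and 207 CPM with PBS and 108, 128, 159 and 102 CPM with vancomycin, without overlap (-0.60 ± 0.14, edgeR adjusted p = 0.125). Ppara, a nuclear receptor that drives these genes, was at 4.21 to 10.6 CPM against 1.92 to 4.11 CPM (-1.11 ± 0.42), and the short-chain enzyme Acads at 139 to 173 CPM against 88.0 to 155 CPM (-0.43 ± 0.15). Of 41 xenobiotic genes 28 were negative (median -0.31), with 11 at an unadjusted p under 0.05, all lower. Examples were the glutathione transferase Gsta4, at 46.8 to 70.2 CPM with PBS and 34.4, 27.6, 57.2 and 34.9 CPM with vancomycin (-0.57 ± 0.18), the sulfotransferase Sult1a1 (-0.71 ± 0.24), the cytochrome P450 gene Cyp2s1 (-0.59 ± 0.21) and the glucuronosyltransferase Ugt2b34 (-0.51 ± 0.19). The mean log2 level of this list was 4.71 in PBS replicate 2, 4.64 and 4.45 in vancomycin replicates 2 and 4, and 4.92 to 5.45 in the other 5 libraries. Vancomycin replicate 3 had the highest level of all ZT11 libraries, 5.45. Leaving out the 3 follicle-rich libraries gave a median of -0.16, with 0 members lower and 1 higher at that p. In the cholesterol list, Insig1, an inhibitor of sterol synthesis, was at 59.7 to 103 CPM against 102 to 129 CPM (0.64 ± 0.17). Ribosomal protein, oxidative phosphorylation, heat shock, unfolded protein response, smooth muscle and endothelial lists had 0 members at an unadjusted p under 0.05. Of 30 ribosomal protein genes 27 were negative (median -0.16).

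**Figure D5:**
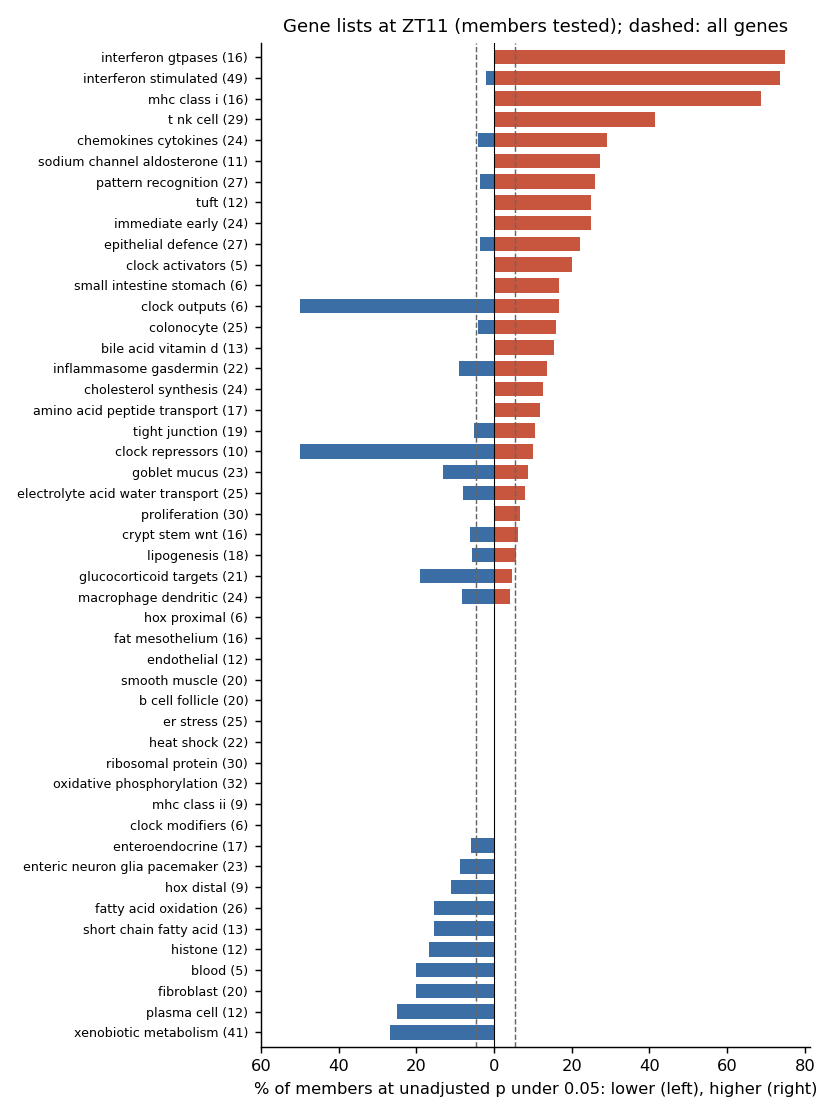
For each list with at least 5 tested members (number in brackets), the percent of members with an unadjusted edgeR p under 0.05 that lay lower (blue, left) or higher (red, right) with vancomycin; dashed lines give 4.54% and 5.32% for all genes. Interferon and MHC class I lists reach far right, and clock repressors and outputs far left.

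A stromal gene was among those with the smallest adjusted p of the comparison. Col8a1, a short-chain collagen of fibroblasts, was at 51.3, 38.8, 70.8 and 33.2 CPM with PBS and 15.3, 9.53, 24.9 and 13.3 CPM with vancomycin (-1.62 ± 0.31, edgeR adjusted p = 0.0739). Adamdec1, a metalloprotease of the mucosal stroma, was at 55.0, 99.3, 116 and 110 CPM against 37.0, 46.2, 66.8 and 28.7 CPM (-1.09 ± 0.30), and the receptor Pdgfra had -0.46 ± 0.19. Of 20 fibroblast genes 4 had an unadjusted p under 0.05, all lower, against 4.54% of all genes, or 3 without the follicle-rich libraries. The list median was -0.16.

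On each side the 12 genes with the lowest p whose groups did not overlap, leaving out predicted genes and receptor segments, were held against all 8 SPF groups. On the higher side they were Trim12c, of the antiviral TRIM family; Galt, of galactose breakdown; Uba7, which activates ISG15; Psmb10; Mif4gd, of histone mRNA handling; the chromatin chaperone Daxx; Ifi202b, of DNA sensing; the phosphatase Acp5; Tmc8; Gbp10; Psme1; and Samd1. Ifi202b stood apart only narrowly, with 0.0875 CPM in vancomycin replicate 2 and 0.086 CPM in PBS replicate 1. In all 12 the PBS libraries at ZT11 had the lowest mean of the 8 SPF groups. The vancomycin libraries at ZT11 had the highest mean in 2, Daxx and Gbp10. Galt was at 13.5, 13.1, 13.7 and 15 CPM with PBS and 23.3, 20.6, 19 and 18.6 CPM with vancomycin (0.56 ± 0.11, edgeR adjusted p = 0.0739), and Uba7 at 44.9 to 49.9 CPM against 53.9 to 105 CPM (0.89 ± 0.17). Daxx was at 24.4 to 27.1 CPM against 30.5 to 57.1 CPM (0.68 ± 0.15). On the lower side were Col8a1, Golt1a and Rab6a of Golgi traffic, Ugt2b35, Cnbd2, the chromatin remodeller Chd9, the corepressor Tle1, the eosinophil chemokine Ccl11, the peptidase Ace, Cpt1a, Nr1d1 and Lmbr1. In 6 of these 12 the vancomycin libraries at ZT11 had the lowest mean of the 8 groups, and in 5 the PBS libraries had the highest. Golt1a was at 13.9, 13.9, 12.7 and 8.11 CPM with PBS and 1.67, 5.07, 2.60 and 1.73 CPM with vancomycin (-2.13 ± 0.44), and Rab6a at 138 to 189 CPM against 108 to 127 CPM (-0.51 ± 0.11). These genes were chosen by the ZT11 contrast, so their place among the groups is a description.

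The ZT11 difference was then tested against the mean vancomycin difference at ZT5, ZT17 and ZT23. By edgeR 18 genes of 16938 (0.106%) were called, 12 more positive (0.0708%) and 6 more negative (0.0354%) at ZT11. Nr1d2 was one of them, with a difference of -1.17 ± 0.22 (adjusted p = 0.0284). The others included Khdrbs2, an RNA-binding protein (4.12 ± 0.74), Hsd17b13, of lipid droplets (3.27 ± 0.61), Trim12c (2.19 ± 0.41), Ankrd50 (1.57 ± 0.29), Abtb2 (1.71 ± 0.34), Col8a1 (-2.15 ± 0.36), Ifi27l2b (-2.69 ± 0.48), Cnbd2 (-1.01 ± 0.20) and the cargo receptor Tmed5 (-0.63 ± 0.13).

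Most of these genes also differed with vancomycin at ZT17, on the opposite side. The vancomycin difference at ZT17 had the opposite sign in 17 of the 18. It passed an edgeR adjusted p of 0.05 there in 13, while 0 passed at ZT5 or ZT23. Over all 16938 genes 54 passed that threshold at ZT17, 14 at ZT5 and 0 at ZT23. In 16 of the 18 the 2 most extreme of the 8 SPF groups were PBS at ZT11 and vancomycin at ZT17. The exceptions were Nr1d2 and Nlrp1b. PBS at ZT11 and vancomycin at ZT17 entered the contrast that chose these genes with the same sign. The signs at ZT17 and the place of the groups are therefore a description. Col8a1 was at 33.2 to 70.8 CPM in PBS at ZT11 and at 22.7 to 41.3 CPM in vancomycin at ZT17. In the PBS groups of the other times it was at 3.21 to 10.3 CPM and in the vancomycin groups of ZT5 and ZT23 at 2.54 to 12.4 CPM. Hsd17b13 was at 1.35 to 38.0 CPM in PBS at ZT11 and 2.93 to 4.43 CPM in vancomycin at ZT17, and at 30.5 to 101 CPM in the other groups of ZT5, ZT17 and ZT23.

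Several of these genes were near 0 in some libraries and abundant in others of the same group. Itln1, encoding the carbohydrate-binding lectin intelectin 1 of goblet and Paneth cells, was at 4.47, 0.794, 7.59 and 8.45 CPM with PBS at ZT11 and 448, 2.71, 543 and 732 CPM with vancomycin (8.95 ± 1.77 against the other times, edgeR adjusted p = 0.033). Mptx2, a pentraxin of intestinal epithelium, followed the same libraries with 0.0794 to 0.86 CPM against 55.3, 0, 59.7 and 241 CPM. Ifi202b was at 0 to 0.086 CPM against 7.67, 0.0875, 5.95 and 5.67 CPM. In all 3 genes vancomycin replicate 2 resembled the PBS libraries. At ZT17 Itln1 was at 2.08 to 2.35 CPM in all vancomycin libraries (log2 fold change -8.47, adjusted p = 0.0196), and within PBS it ran from 9.91 to 1134 CPM at ZT5, up to 2574 CPM at ZT17 and from 7.71 to 871 CPM at ZT23. GF libraries at ZT11 held 227 to 1069 CPM in both treatments. Nlrp1b, an inflammasome sensor, was at 0.344, 0.318, 0.674 and 5.41 CPM with PBS and 3.36 to 7.75 CPM with vancomycin at ZT11, and at most 0.481 CPM with PBS and 0.453 CPM with vancomycin at ZT23. The labels name no litter or cage for single mice of this outbred stock.

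Whether these genes passed the threshold depended on single libraries, while the differences of the 14 named genes kept their sign in every such fit. With 1 library left out Nr1d2 ran from -1.35 to -1.03, Col8a1 from -2.46 to -1.91, Trim12c from 2.05 to 2.41 and Itln1 from 8.57 to 9.35. Each of the 14 called genes named here was lost in at least 2 of the 8 fits that left out 1 ZT11 library, Col8a1 in 2 and Nr1d2 in 5, where the adjusted p of Nr1d2 was 0.0540 to 0.132. The number of calls ran from 0, without PBS replicate 3 or without vancomycin replicate 4, to 44, without PBS replicate 4. It was 3 without PBS replicate 1, 1 without PBS replicate 2 and 2 without vancomycin replicate 3.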

How the data were processed

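Poly(A) RNA of whole colon was sequenced on a NextSeq 550 with single-end reads of 75 cycles from 1000 ng of total RNA, per the labels' protocols. Per the submitters' processing notes, Trim Galore 0.6.2, cutadapt 3.5, Salmon and GRCm39 were used; annotation, summing to genes and strand use: not given in the sources used here. The authors deposited 1 table for SPF and 1 for GF colon. The deposited values were read as unscaled estimated counts per gene, because library totals differ and low values cluster near 1. The tables held 0 columns of other samples.

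Estimated counts were rounded, and 16938 genes with at least 10 counts in at least 4 SPF libraries were kept. The 32 SPF libraries were fitted together with edgeR 4.0.16 (TMM scaling, quasi-likelihood test), with Benjamini-Hochberg adjustment over all genes and a threshold of 0.05, in R 4.3.3. The SPF and GF comparison used 1 fit of 64 libraries over 16604 genes. DESeq2 1.42.0 and limma 3.58.1 were alternatives, beside other scalings, filters, a replicate block and each ZT11 library left out. CPM values use TMM-scaled totals. List levels are means of log2(CPM + 0.5). Scripts were tested on simulated data. Depth was 10044032 to 12314157 estimated counts per ZT11 library.

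The comparison and gene lists were chosen with earlier results of these data known. Named genes were the 12 with the lowest p in each direction whose groups did not overlap and which had a mean of at least 2 CPM in a group, all clock genes, up to 4 members of each other list at an unadjusted p under 0.05, and up to 6 genes a direction called against the other times or GF. Oas2, Stat2, Isg15, Ifit1, Trim30d, Cxcl10, Igha, Pla2g2a, Gsdmc2 and the tissue markers lie outside that rule and were chosen after their values were seen. Promoters are of GRCm38.p6 and were used for sequence only. Some genes that the rule names are not reported here.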

Additional observations from a re-analysis of the deposited data

Results flagged for a closer look

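In each group of 4 libraries the highest or lowest value was compared with the rest for 98 genes and the clock time, 198 groups in all. In 12 of them the gap to the nearest library exceeded the 95% critical value of Dixon's test, relative to the range. Chance alone marks about 1 in 20 groups, 9.9 here, so the number is near that background.

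In PBS replicate 4, Nr1d1 was low at 72.7 CPM (others 136 to 141), Nlrp1b was high at 5.41 CPM (others 0.318 to 0.674) and the metallothionein Mt2 was high at 61.9 CPM (others 34.1 to 36.3). In PBS replicate 2, the follicle-rich PBS library, Cd3d was high at 2.54 CPM, Nkg7 at 0.873 CPM and Sigirr at 32.4 CPM, and Slc51b was low at 3.65 CPM (others 9.38 to 9.54). In PBS replicate 1, Daxx was high at 27.1 CPM, and Ifi202b was at 0.086 CPM where the others were at 0. In vancomycin replicate 2, Gbp10 was high at 18 CPM (others 2.02 to 2.94) and Tgtp1 at 43.6 CPM (others 1.59 to 4.00). In vancomycin replicate 1, Gsdmd was high at 167 CPM (others 141 to 143).

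The vancomycin difference at ZT11 departed from the mean of the other times, by edgeR at an adjusted p under 0.05, for 14 of the genes named. The log2 difference was negative for Ifi27l2b (-2.69), Col8a1 (-2.15), Nr1d2 (-1.17), Cnbd2 (-1.01) and Tmed5 (-0.63). It was positive for Mptx2 (11.42), Itln1 (8.95), Ifi202b (8.81), Khdrbs2 (4.12), Hsd17b13 (3.27), Nlrp1b (3.26), Trim12c (2.19), Abtb2 (1.71) and Ankrd50 (1.57). Between SPF and GF colon the difference of Dbp departed by -3.19.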

How the results depend on the processing

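The number of genes called at ZT11 was 0 with other size factors, with library totals alone, without a filter, with a minimum of 50 counts and with the 8 libraries fitted alone, but 102 with DESeq2 and 7 with limma-trend, and 0 to 109 when 1 library was left out. Against the other times it was 18, with 92 in DESeq2 and 0 to 44 when 1 library was left out. Between SPF and GF it was 1, with 3 by library totals, 32 in DESeq2, 4 in limma-trend, 2 with the minimum of 50 and 0 to 28 when 1 library was left out. Without the follicle-rich libraries, a setting chosen after seeing the data, these counts were 0, 1 and 0.

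Members at an unadjusted p under 0.05 numbered 4 to 8 for clock genes on the lower side when 1 library was left out, and on the higher side 17 to 40 for interferon-stimulated genes, 2 to 15 for GTPases and 6 to 14 for MHC class I. Without the follicle-rich libraries they numbered 5, 1, 2 and 3. In limma-trend the number of GTPases at that p was 6. The cause was not tested. The sign turned for Cry1 in limma-trend (0.18) and for Wee1 without the follicle-rich libraries (0.12), and with 1 library left out Per2 ran from -0.29 to 0.17 and Cry1 from -0.73 to 0.26. Over 98 genes, 1544 of 1663 alternatives at ZT11 kept the direction without a call, and 114 gave a call.

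The replicate numbers are not said to mark a shared litter or day. Deviations of same-numbered libraries correlated at 0.12, 0.49, 0.17 and -0.05, not all over 0.1, and not every library correlated best with its own number (0.12 against up to 0.20 for number 1), so the numbers were not taken as pairs. With a replicate block 0 genes were called at ZT11, 3 against the other times and 2 between SPF and GF, with 8, 35, 10 and 11 list members.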
